A study of Homo sapiens with 6 samples.

Results

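Tubulin transcripts were examined in HCC827 cells, an established human lung adenocarcinoma line with an activating deletion in EGFR, after 24 h with the vehicle DMSO (3 libraries) or with 1 μM erlotinib, an inhibitor of the EGFR kinase (3 libraries). All cells were of this 1 line, so the values describe 1 tumor background. The genes were 10 of the 28395 in the deposited table: the alpha isotypes TUBA1A, TUBA1B, TUBA1C and TUBA4A, the beta isotypes TUBB2A, TUBB2B, TUBB3, TUBB4B and TUBB6, and the gamma tubulin TUBG1. They were selected with their DMSO and erlotinib values in view. Their changes are therefore given as a description, without a test. Values are normalised signal, which is uniquely mapped reads divided by 1 size factor per library, and the libraries held 20858083, 24641819 and 21172884 reads (DMSO 1 to 3) and 21944007, 20760204 and 21678395 reads (erlotinib 4 to 6). The erlotinib libraries carry these numbers in the table, and nothing in the labels says whether the libraries of a group came from separate cultures, so p-values measure only the spread between these libraries. In bulk RNA, fewer cells with a transcript and less of it per cell cannot be told apart.

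Microtubules are hollow polymers of alpha and beta tubulin dimers, and gamma tubulin sits in the ring complex from which they grow. Each subunit is encoded by several genes, called isotypes, whose proteins differ mainly in a short acidic tail at the carboxy terminus that projects from the microtubule surface and is modified after assembly. Dividing cells need tubulin for the spindle, and neurons are known for high TUBA1A, TUBB2A, TUBB2B and TUBB3. Free tubulin dimers also lower the stability of tubulin mRNA, a loop termed autoregulation.

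The coding ends of 1 alpha and 3 beta members are shown because they are where the isotypes differ and where enzymes act on them. Below are the last 60 coding bases with the stop codon, read from GENCODE transcripts, with in-frame glutamate codons (GAA and GAG) in capitals.
TUBA4A: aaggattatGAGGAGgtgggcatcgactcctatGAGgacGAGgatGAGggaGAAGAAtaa
TUBB3: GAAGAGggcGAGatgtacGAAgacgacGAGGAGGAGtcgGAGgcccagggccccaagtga
TUBB4B: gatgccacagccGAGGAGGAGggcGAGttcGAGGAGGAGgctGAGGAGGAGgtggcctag
TUBB6: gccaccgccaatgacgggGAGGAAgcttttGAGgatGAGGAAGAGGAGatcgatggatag
TUBA4A carried 7 glutamate codons in this stretch of 19 codons and ends in one before the stop. TUBB4B carried 10 glutamate codons there, TUBB3 8 and TUBB6 7.

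TUBA1B, the main alpha tubulin of these cells, and TUBA1A, a close copy known for its role in developing neurons, changed in opposite directions. Their genes lie close together on chromosome 12 (GRCh38.p14, RefSeq), TUBA1B at chr12:49127782-49131395 and TUBA1A at chr12:49184795-49189080, both on the minus strand. The signal of TUBA1B was 43239, 41925 and 41600.4 in the DMSO libraries and 4073, 4339 and 4225 in the erlotinib libraries. Every erlotinib library was far below every DMSO library. The mean was 42255 ± 868 (SD, n = 3) with DMSO and 4213 ± 133 (n = 3) with erlotinib, 10.0-fold lower, with a log2 fold change of -3.33 (SE 0.06). TUBA1A had a signal of 158, 192 and 153 with DMSO and of 1654, 1558 and 1729 with erlotinib. The groups were again far apart, in the reverse order. Its mean went from 168 ± 21.4 to 1647 ± 85.6 (n = 3 each), 9.82-fold higher, with a log2 fold change of 3.29 (SE 0.11). Of the 14215 genes tested, 98.6% had a lower log2 fold change than TUBA1A and 0.274% a lower one than TUBA1B. The ratio of TUBA1A to TUBA1B within a library was 0.00365, 0.00459 and 0.00368 with DMSO and 0.406, 0.359 and 0.409 with erlotinib, a change of 98.6-fold in the mean ratio. In absolute signal the rise of TUBA1A, 1479, was 3.89% of the fall of TUBA1B.

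**Figure D1:**
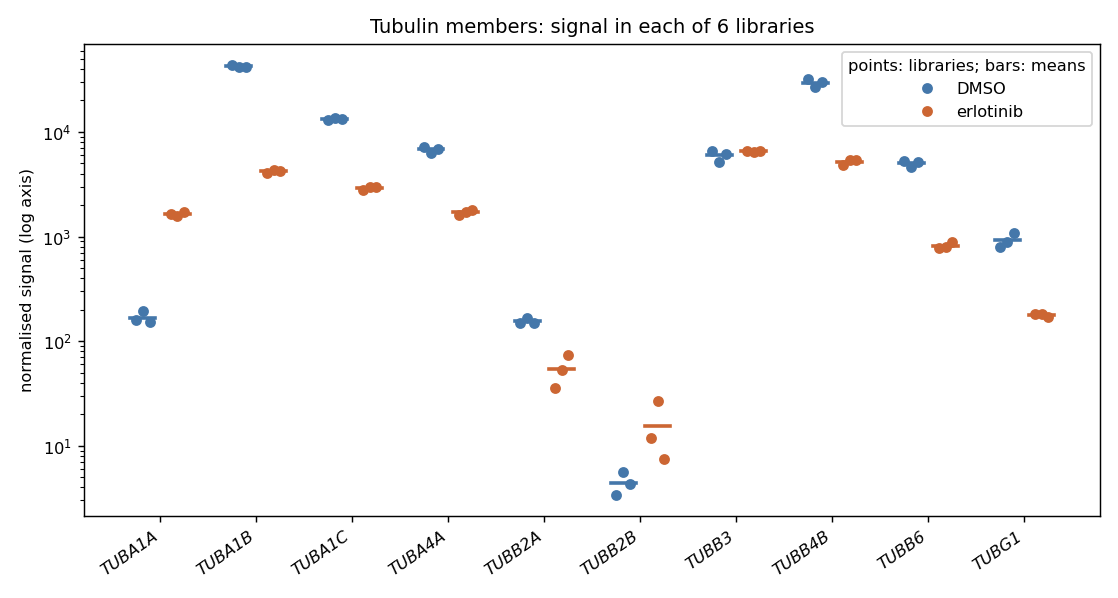
Normalised signal (vertical log axis) of the 10 tubulin genes in each of the 3 DMSO and 3 erlotinib libraries, with points for libraries and bars for means. TUBA1A and TUBB2B lie higher with erlotinib, TUBB3 overlaps between the groups, and the other 7 lie lower.

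TUBA1C and TUBA4A, the other alpha members, followed TUBA1B and not TUBA1A. TUBA1C lies beside TUBA1A on the plus strand of chromosome 12 (chr12:49227926-49274600 in RefSeq). In GENCODE it starts earlier (chr12:49188736-49274600) and shares 345 exon bases with TUBA1A (chr12:49184686-49189080), none of them in the main transcripts of both. TUBA1C had a signal of 13127, 13644 and 13441 with DMSO and of 2764, 2948 and 2994 with erlotinib. The means were 13404 ± 260.4 and 2902 ± 122, 4.62-fold lower (log2 fold change -2.21, SE 0.06). TUBA4A (chr2:219249710-219254740), an alpha isotype whose gene has no terminal tyrosine codon, had 7179.7, 6326 and 6934 with DMSO and 1611, 1709.7 and 1806 with erlotinib. The groups did not overlap for either gene. For TUBA4A the means were 6813 ± 439 and 1709 ± 97.2, 3.99-fold lower (log2 fold change -1.99, SE 0.07). TUBA4A shares ground with STK16, a kinase gene whose signal rose from 444 ± 79.8 to 803 ± 26.1 (log2 fold change 0.87, adjusted p = 1.3e-06, limma, Benjamini-Hochberg), and with TUBA4B, with means of 3.15 and 2.51. The strand that was counted is not stated, so reads where TUBA4A and STK16 overlap cannot be told apart. The same holds for TUBA1A and TUBA1C, and for TUBA1B, which shares 1571 exon bases in GENCODE with the antisense gene TUBA1B-AS1.

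Among the abundant beta members, TUBB4B and TUBB6 were lower and TUBB3 overlapped between the groups. TUBB4B (chr9:137241287-137243707), a widely expressed isotype also used in cilia, had a signal of 31744, 27110.1 and 29721 with DMSO and of 4850.3, 5402 and 5391 with erlotinib. Its means were 29525 ± 2323 and 5214 ± 315, 5.66-fold lower (log2 fold change -2.50, SE 0.07). TUBB6 (chr18:12307669-12329826), a divergent beta isotype found at low levels in most tissues, had 5283, 4674 and 5120 with DMSO and 779, 792 and 889 with erlotinib. All erlotinib libraries of both genes lay below all DMSO libraries. For TUBB6 the means were 5026 ± 315 and 820.0 ± 60.3, 6.13-fold lower (log2 fold change -2.61, SE 0.08). TUBB6 overlaps AFG3L2, a mitochondrial protease gene with means of 554 and 337.

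TUBB3 (chr16:89921925-89936097), the beta isotype used as a marker of neurons, was the member nearest to no change. Its signal was 6519, 5204 and 6223 with DMSO and 6522, 6491 and 6563 with erlotinib. DMSO library 1 lay within the erlotinib range and DMSO library 2 was the lowest of the 6. The means were 5982 ± 689.8 and 6525 ± 35.9, with a log2 fold change of 0.13 (SE 0.07), above that of 55.4% of the genes tested. When each library was scaled to its total count, the log2 fold change of TUBB3 was 0.31, and the median of all genes was 0.19 in place of 0.02, so that TUBB3 lay 0.12 above the median. The ratio of TUBB3 to TUBB4B within a library was 0.205, 0.192 and 0.209 with DMSO and 1.34, 1.20 and 1.22 with erlotinib. The ratio of TUBB3 to TUBB6 likewise went from a mean of 1.19 to 7.98. In GENCODE a protein-coding gene on the same strand with no symbol of its own shares 1584 exon bases with TUBB3. In RefSeq the gene MC1R is a close neighbour of TUBB3, and its signal rose from 102 ± 12.3 to 246 ± 8.59 (log2 fold change 1.26, adjusted p = 7.35e-07).

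TUBB2A and TUBB2B, neighbouring genes on chromosome 6 (chr6:3153666-3157544 and chr6:3224277-3227653) that encode nearly the same beta tubulin of neurons, stood on opposite sides at low levels. TUBB2A had a signal of 149, 166 and 149.8 with DMSO and of 36.0, 53.5 and 73.0 with erlotinib. The groups did not overlap, and the means were 155 ± 9.84 and 54.2 ± 18.5, 2.86-fold lower (log2 fold change -1.55, SE 0.24). TUBB2B was covered by 3, 6 and 4 reads with DMSO and by 13, 27 and 8 with erlotinib. These groups did not overlap either, but the gap between 6 and 8 reads is small against counting error. Its mean signal of 9.91 missed the minimum of 10, so that it was not among the genes tested. Without that minimum its log2 fold change was 1.44 (SE 0.58). TUBG1 (chr17:42609683-42615238), the gamma tubulin of the ring complex, had 796, 895 and 1085 with DMSO and 179.9, 180.2 and 169 with erlotinib. No library of TUBG1 overlapped between the groups, and its means were 926 ± 147 and 177 ± 6.14, 5.24-fold lower (log2 fold change -2.37, SE 0.12).

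Of the 10 members, 9 passed the minimum signal. Across all genes tested, 35.4% were lower and 35.3% higher at an adjusted p under 0.05 (limma), and no call of a member is counted here. The erlotinib libraries lay entirely below the DMSO libraries for 7 of the 10 and entirely above for 2, where 36.9% of all genes tested lay entirely below and 36.7% entirely above. Since the members were chosen on this same contrast, nothing is read from these counts. Of all calls, 50.1% were lower, and 39.1% were lower when libraries were scaled to their total count. The median log2 fold change of the 9 was -2.21, beside 0.02 for all genes tested.

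**Figure D2:**
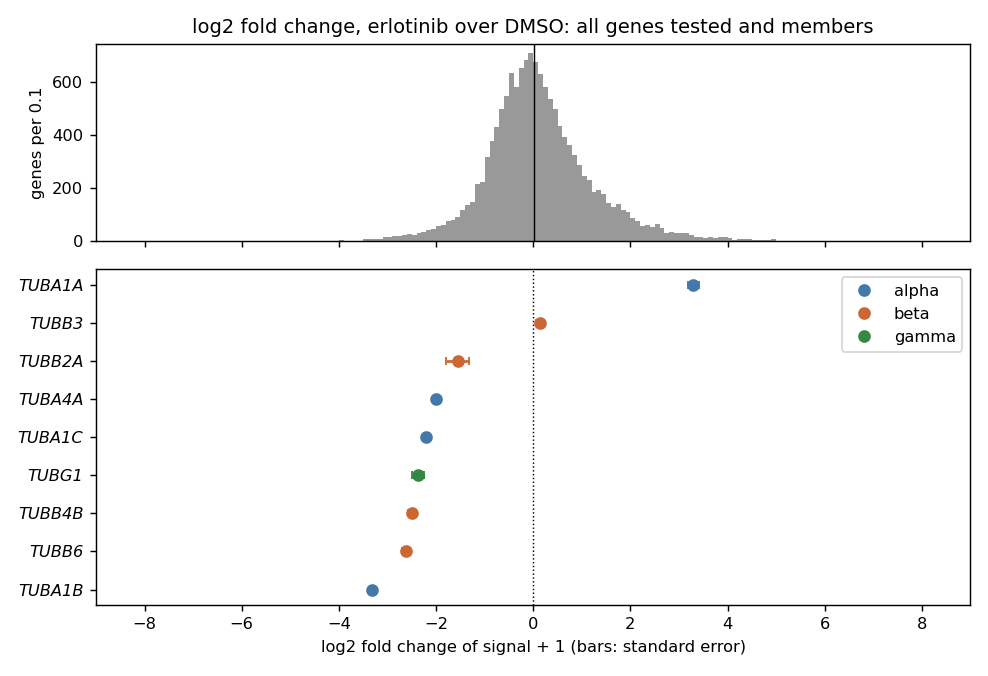
Log2 fold change of signal + 1, erlotinib over DMSO (horizontal axis), as a histogram of all 14215 genes tested (top; vertical line, median of 0.02) and for the 9 members that passed the minimum signal (bottom; bars, standard error). TUBA1A sits at 3.29 and TUBB3 at 0.13, and the other 7 lie between -3.33 and -1.55.

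The summed signal of the alpha and beta members was 4.47-fold lower with erlotinib. It was 107402, 99248 and 103347 in the DMSO libraries and 22302, 23321 and 23677 in the erlotinib libraries. The highest erlotinib sum was far below the lowest DMSO sum. The means were 103333 ± 4077 and 23099.8 ± 714 (n = 3 each), a log2 ratio of -2.16. As a share of each library's reads, without size factors, the 9 genes took 0.448% ± 0.0123 with DMSO and 0.113% ± 0.00327 with erlotinib, 3.95-fold lower. Per kilobase of transcript the sum was 59314 ± 2534 and 13075 ± 399, 4.54-fold lower. TUBA1B and TUBB4B together made up 77.7% of the net fall in summed signal, 47.4% from TUBA1B and 30.3% from TUBB4B. TUBA1C contributed 13.1%, TUBA4A 6.36% and TUBB6 5.24%. These contributions depend on the scale. Per kilobase of transcript TUBA1B made up 50.6%, TUBB4B 33.6%, TUBA1C 8.05%, TUBA4A 5.39% and TUBB6 4.84%, and per kilobase of uniquely mappable positions 64.8%, 24.8%, 5.73%, 3.54% and 3.24%. Without TUBB3 the sum of the other 8 was 5.87-fold lower, from 97350.5 ± 3425 to 16574 ± 703.

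The alpha sum was lower by a larger factor than the beta sum. The alpha members summed to 62640.2 ± 921 with DMSO and 10470.2 ± 334 with erlotinib, 5.98-fold lower, and the beta members to 40692 ± 3301 and 12629.5 ± 381, 3.22-fold lower. The ratio of alpha to beta signal was 1.46, 1.67 and 1.51 in the DMSO libraries and 0.828, 0.827 and 0.832 in the erlotinib libraries. The ratio was above 1 in the 3 DMSO libraries and below 1 in the 3 erlotinib libraries. Per kilobase of transcript the mean ratio was 1.36 ± 0.0961 and 0.712 ± 0.00262. Per kilobase of uniquely mappable positions, a scale chosen after the data were seen, it was 2.11 ± 0.149 and 0.976 ± 0.00609, and the sum of both was 5.14-fold lower. TUBB, the widely expressed class I beta gene, is listed at 0 in all 6 libraries, and its level cannot be judged from these values. The beta sum therefore covers only the 5 beta members named here. The ratio of alpha to beta and the shares of the beta sum given below hold for the named members alone.

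**Figure D3:**
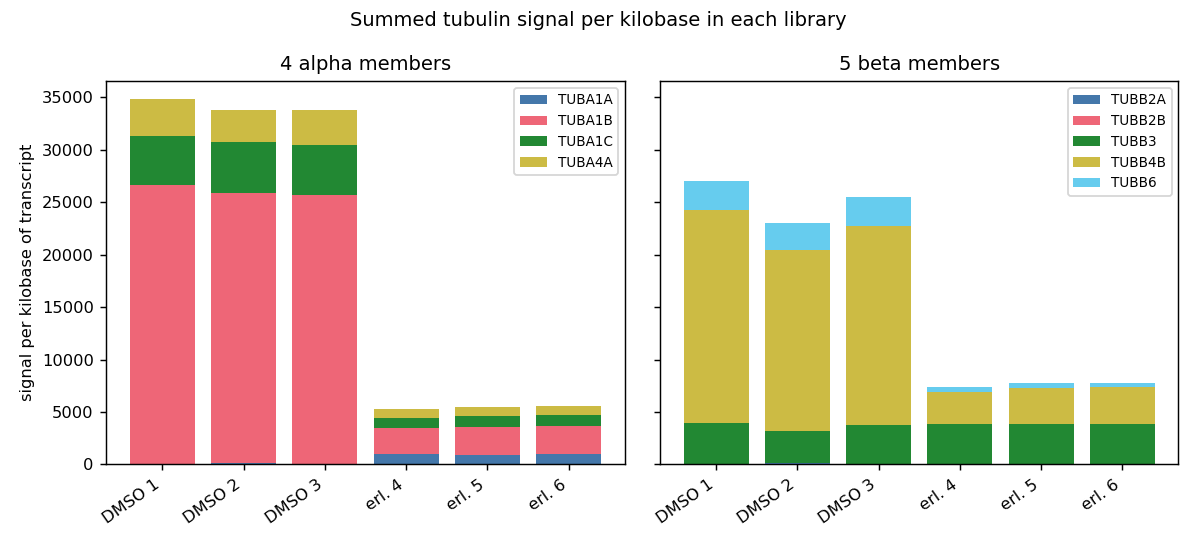
Stacked signal per kilobase of transcript (vertical axis, from 0) of the 4 alpha members (left) and 5 beta members (right) in each of the 6 libraries. The alpha sum averages 34145 with DMSO and 5436 with erlotinib, the beta sum 25169 and 7639, and the TUBB3 block has nearly the same height in both groups.

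Compared per kilobase of transcript, the order of the members changed. With DMSO, TUBA1B stood first at 25971 ± 533, followed by TUBB4B at 18890.1 ± 1486 and TUBA1C at 4748 ± 92.2. TUBB3, at 3507 ± 404, and TUBA4A, at 3325 ± 214, came next with ranges that overlapped. TUBB6, at 2675 ± 168, and TUBG1, at 576 ± 91.3, followed, ahead of TUBA1A at 100.3 ± 12.8 and TUBB2A at 95.9 ± 6.09, whose ranges overlapped, and TUBB2B was last at 2.3 ± 0.57. With erlotinib, TUBB3 stood first at 3825 ± 21.0, ahead of TUBB4B at 3336 ± 202 and TUBA1B at 2589 ± 81.9. TUBA1C, at 1028 ± 43.1, and TUBA1A, at 985 ± 51.2, were next and overlapped. TUBA4A, TUBB6, TUBG1, TUBB2A and TUBB2B followed in this order, each apart from the next. Per kilobase of uniquely mappable positions the first place with erlotinib was held by TUBA1B, at 6269 ± 198, and TUBB3 was second at 5331 ± 29.3. On that scale TUBA1A, at 1739 ± 90.3, lay above TUBA1C, at 1383 ± 58.0, with no overlap, and with DMSO TUBB2A, at 390.2 ± 24.8, lay above TUBA1A, at 177 ± 22.6, also with no overlap.

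Within the alpha sum per kilobase of transcript, TUBA1B made up 76.1% ± 0.370 with DMSO and 47.6% ± 1.04 with erlotinib, and TUBA1A 0.294% ± 0.0400 and 18.1% ± 0.972. The shares of TUBA1C, from 13.9% ± 0.495 to 18.9% ± 0.247, and of TUBA4A, from 9.74% ± 0.522 to 15.3% ± 0.438, were larger with erlotinib although their signals were lower. Within the beta sum, TUBB3 went from 13.9% ± 0.558 to 50.1% ± 1.54 and TUBB4B from 75.1% ± 0.417 to 43.6% ± 1.36. TUBB6 went from 10.6% ± 0.216 to 5.71% ± 0.309. Several alpha shares moved when uniquely mappable positions were used in place of transcript length. TUBA1B then made up 85.5% ± 0.250 with DMSO and 60.1% ± 1.06 with erlotinib, TUBA1C 8.69% ± 0.314 and 13.3% ± 0.196, TUBA4A 5.61% ± 0.306 and 9.92% ± 0.324, and TUBA1A 0.241% ± 0.0325 and 16.7% ± 0.938. The share of TUBB3 in the beta sum was 14.0% ± 0.572 and 49.9% ± 1.65 on that scale.

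**Figure D4:**
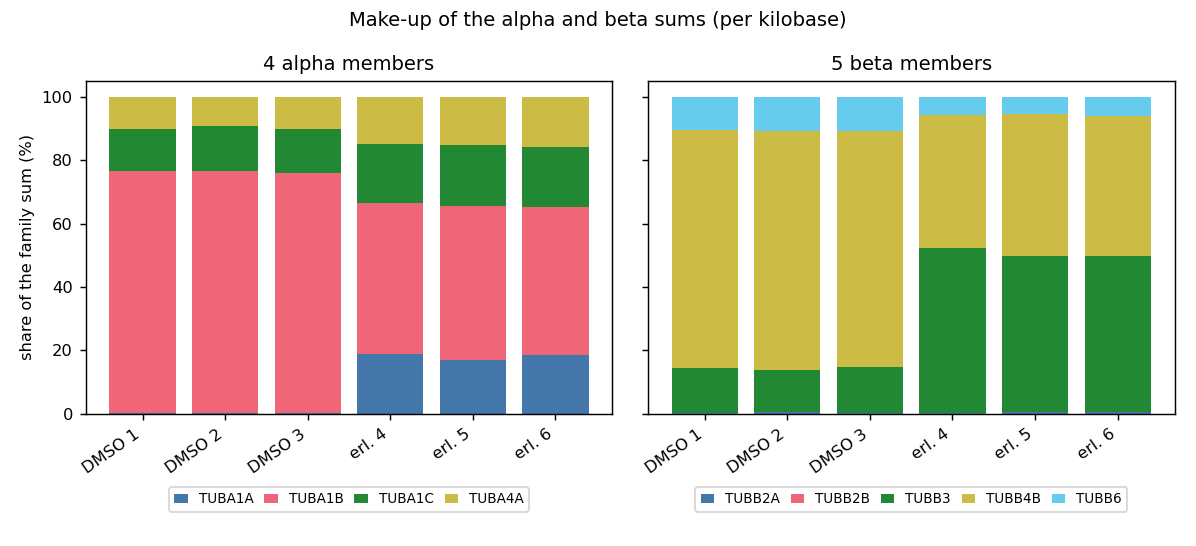
Share (%) of each gene in the alpha sum (left) and in the beta sum (right), from signal per kilobase of transcript, in each of the 6 libraries. With erlotinib TUBA1A makes up 18.1% of the alpha sum and TUBB3 50.1% of the beta sum, against 0.294% and 13.9% with DMSO.

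Because the isotypes are close copies, the share of each gene that a read can identify was computed. The coding sequences of TUBA1A and TUBA1B are 97.2% identical and those of TUBB2A and TUBB2B 98.1%. Of all 100-base windows within exons, 74.2% were found once in the genome for TUBA1A, 54.5% for TUBA1B, 86.4% for TUBA1C and 97.8% for TUBA4A. For the beta members the share was 32.5% for TUBB2A, 41.9% for TUBB2B, 93.4% for TUBB3, 96.2% for TUBB4B and 100% for TUBB6, and it was 73.6% for TUBG1. TUBA1A shared 21.9% of its windows with TUBA1B and moved against it. TUBB was a different case. Of its windows, 97.8% were found once in the primary chromosomes, but 100% of them also occur on alternate contigs of the genome. Whether the authors mapped to those contigs was not given in the sources used here. PFDN6 and ATAT1, genes of the same chromosome arm with 100% of windows on alternate contigs, are also listed at 0, as are MAPT (97.5%) and TUBGCP5 (86.3%). TBCD (72.0%), TUBGCP3 (62.3%) and PTPRC (23.7%) have windows there too and are listed with reads. TUBB8 and TUBA3C, at 0 as well, had 8.58% and 0% of windows on such contigs.

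Promoters are shown for TUBA1A and TUBA1B, which moved apart, and for TUBB4B, which moved with TUBA1B. The 250 bases before the annotated start are from RefSeq (GRCh38.p14), read along the gene, with CCAAT or its reverse complement ATTGG in capitals.
TUBA1A, chr12:49189081-49189330, minus strand: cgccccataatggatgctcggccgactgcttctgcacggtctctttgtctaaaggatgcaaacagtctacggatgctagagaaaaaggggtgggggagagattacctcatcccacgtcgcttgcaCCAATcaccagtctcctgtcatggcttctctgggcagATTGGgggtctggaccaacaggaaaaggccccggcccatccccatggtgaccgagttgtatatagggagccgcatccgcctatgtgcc
TUBA1B, chr12:49131396-49131645, minus strand: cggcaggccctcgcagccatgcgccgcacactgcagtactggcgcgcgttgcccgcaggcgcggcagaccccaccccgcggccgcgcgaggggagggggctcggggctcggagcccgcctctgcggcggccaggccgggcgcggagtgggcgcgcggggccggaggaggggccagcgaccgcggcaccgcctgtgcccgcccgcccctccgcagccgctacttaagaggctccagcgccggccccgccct
TUBB4B, chr9:137241037-137241286, plus strand: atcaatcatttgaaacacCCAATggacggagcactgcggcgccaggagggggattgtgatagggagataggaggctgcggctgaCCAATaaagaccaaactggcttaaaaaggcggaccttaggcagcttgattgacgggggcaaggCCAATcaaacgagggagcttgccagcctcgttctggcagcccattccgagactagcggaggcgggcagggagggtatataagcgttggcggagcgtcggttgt
TUBA1A holds 2 of these motifs, TUBB4B holds 3 and TUBA1B holds none. All 10 members had a promoter entry, 14 windows in all, and 7 members held the motif in at least 1 window. TUBA1C, TUBB3 and TUBB6 had more than 1 window, so this count per member cannot be set against a share of windows. Of all 35116 promoter windows of this length, 32% held at least 1 such motif, 9.53% at least 2 and 2.93% at least 3. TUBA4A, TUBB2A and TUBA1B were the members without it. The letters TATAAA were found in the windows of 1 member, TUBB2A, and in 10.7% of all windows. G and C made up 81.2% of the TUBA1B window, 56.4% of the TUBA1A window and 56.8% of the TUBB4B window.

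The other tubulin genes that had reads in the table lay far below TUBA1B and TUBB4B. Of 12, TUBB, TUBB8 and TUBA3C are listed at 0 in all libraries, and 7 passed the minimum signal. TUBD1 (delta tubulin, a centriole protein) was lower, from 316 ± 38.7 to 181 ± 24.3 (log2 fold change -0.80, adjusted p = 6.5e-05). TUBE1 (epsilon tubulin, also of centrioles) was lower, from 113 ± 48.9 to 65.3 ± 22.3 (log2 fold change -0.75, adjusted p = 0.023). This call was lost without DMSO library 2 (log2 fold change -0.43, adjusted p = 0.18), erlotinib library 5 (-0.53, adjusted p = 0.12) or erlotinib library 6 (-0.73, adjusted p = 0.055). TUBG2, the second gamma tubulin gene, which is 94.7% identical to TUBG1 in coding sequence, was higher. Its signal was 227, 174 and 215 with DMSO and 310.1, 315 and 325 with erlotinib (log2 fold change 0.63, adjusted p = 4.1e-04). TUBG1 and TUBG2 thus lay on opposite sides of DMSO. The platelet isotype TUBB1 had means of 28.5 and 15.4 (log2 fold change -1.26, adjusted p = 0.059). Without erlotinib library 5 it was at -1.91 (adjusted p = 0.0077), and with 1 library left out in turn it lay between -1.91 and -0.43. TUBA3D had a mean of 14.3 in both groups. TUBB4A, with means of 6.75 and 14.5, and TUBA8, with 8.7 and 18, passed the minimum only through the erlotinib libraries, and no test of them is given. TUBAL3 had 0 reads in the DMSO libraries and 6 in each erlotinib library, and TUBA3E 6 reads in DMSO library 1 and 0 elsewhere. Of the 7, 2 were lower and 1 higher, beside 35.4% and 35.3% of all genes tested, with a median log2 fold change of 0.00 (-0.75 without TUBB4A and TUBA8).

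The genes that fold tubulin were mostly lower, but most of the cofactors TBCA to TBCE passed as neither lower nor higher. The 20 genes tested had a median log2 fold change of -0.74, and 12 passed as lower, 1 as higher and 7 as neither, where 35.4% of all genes tested were lower and 35.3% higher. All 8 subunits of the CCT chaperonin, the ring in which new alpha and beta tubulin fold, were lower. CCT5 went from 3560.3 ± 333 to 1362 ± 108 (log2 fold change -1.38, adjusted p = 3.8e-12) and CCT6A from 22600.2 ± 1413 to 8896 ± 275 (log2 fold change -1.34, adjusted p = 1.4e-13). Of the cofactors that join alpha to beta (TBCA to TBCE), TBCD was lower, from 275 ± 35.7 to 198 ± 2.70 (adjusted p = 0.0063), a call lost with total counts (adjusted p = 0.076), and 72.0% of its windows also occur on alternate contigs. TBCC was the gene called higher, at 0.21 (adjusted p = 0.039), a call lost with TMM factors (adjusted p = 0.055). It was also lost without DMSO library 2 (adjusted p = 0.073), erlotinib library 5 (0.17) or erlotinib library 6 (0.13). TBCA (adjusted p = 0.11), TBCB (0.45) and TBCE (0.74) passed as neither, as did TBCEL (0.19) and ARL2 (0.21). PFDN6 is listed at 0.

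Autoregulation acts on translated tubulin mRNA: TTC5 binds the start of the new chain, and SCAPER links it to the CNOT11 subunit of the CCR4-NOT deadenylase. TTC5 recognises the residues of the first 4 codons in alpha and beta chains, and these codons are shown for an alpha gene, a beta gene and the gamma gene.
TUBA1B: atgcgtgagtgc
TUBB4B: atgagggaaatc
TUBG1: atgccgagggaa
The start of TUBA1A is the same as that of TUBA1B in these bases. TTC5 had means of 557 ± 25.8 and 581 ± 23.8 (log2 fold change 0.06, adjusted p = 0.60) and CNOT11 of 2650.0 ± 50.7 and 2781 ± 37.0 (0.07, adjusted p = 0.36). SCAPER was higher, from 74.5 ± 11.5 to 128 ± 5.12 (log2 fold change 0.78, adjusted p = 0.0018). Of these 3 genes 1 was thus higher, where 35.3% of all genes tested were. With total-count scaling all 3 were called higher, but so were 43.3% of all genes.

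The enzymes that modify tubulin were mostly higher. The 19 genes tested had a median log2 fold change of 0.74, and 14 of them were higher, 3 lower and 2 neither, where 35.3% of all genes tested were higher and 35.4% lower. With at least 10 reads in every library, 11 were higher, as were 33.9% of all genes. VASH1 and VASH2, which with their partner SVBP remove the terminal tyrosine of alpha tubulin, were higher: VASH1 went from 27 ± 13 to 92.5 ± 7.37 (adjusted p = 3.7e-05), VASH2 from 87.0 ± 20.2 to 340.0 ± 29.9 (adjusted p = 2.6e-09) and SVBP from 320.2 ± 37.3 to 526 ± 16.7 (adjusted p = 1.4e-05). KIAA0895L, another tyrosine-removing enzyme, rose by 0.59 on the log2 scale (adjusted p = 2.7e-05). TTL, which puts the tyrosine back, was lower, from 1871 ± 172 to 953 ± 58.0 (log2 fold change -0.97, adjusted p = 2.3e-09). The coding end of TUBA4A, shown above, has no tyrosine codon before the stop. Among enzymes that add or trim glutamate, AGBL2 had means of 5.08 and 39.0 and TTLL1 of 5.55 and 30.8. Both passed the minimum only through the erlotinib libraries, so nothing is read from their calls, and without them 12 of 17 were higher. These 12 include AGTPBP1 at 0.20 (adjusted p = 0.049), a call lost under 10 of 15 alternatives. They also include AGBL3 at 0.74 (adjusted p = 0.013), a call lost without erlotinib library 4 (adjusted p = 0.092) and at an adjusted p under 0.01. Of the other enzymes that add glutamate, TTLL4 was lower (-0.98, adjusted p = 4.8e-09), and TTLL11, from 936 ± 77.3 to 1598 ± 49.0 (0.77, adjusted p = 5.0e-08), and TTLL9, with 10, 18 and 11 reads against 56, 37 and 38 (1.57, adjusted p = 0.0013), were higher. TTLL5 (adjusted p = 0.97) and TTLL7 (adjusted p = 0.95) passed as neither. AGBL5, which trims glutamate at branch points, went from 882 ± 43.3 to 1639 ± 117 (adjusted p = 6.1e-09). The deacetylases HDAC6 (log2 fold change 0.88, adjusted p = 4.2e-07) and SIRT2 (0.51, adjusted p = 0.0029) were higher, and ATAT1, the acetyltransferase, is listed at 0. With AGBL2 and TTLL1 set aside, the largest rise in the list was that of TTLL3, from 27.8 ± 4.50 to 126 ± 1.56 (log2 fold change 2.16, adjusted p = 1.3e-07).

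**Figure D5:**
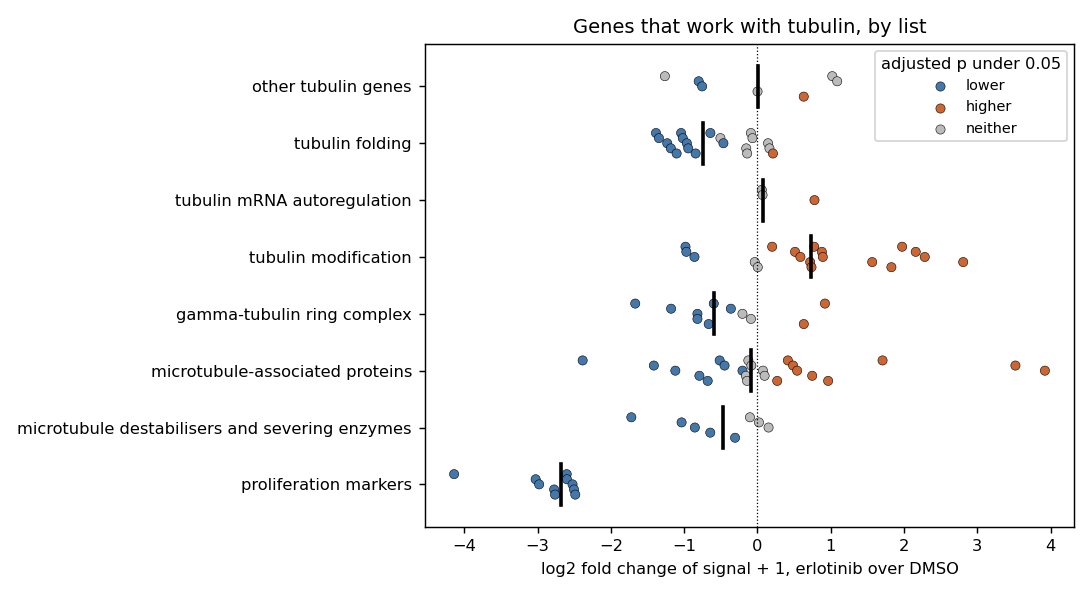
Log2 fold change of signal + 1, erlotinib over DMSO (horizontal axis), of each tested gene in 8 lists, 1 point a gene, colored by whether the adjusted p (limma) was under 0.05 and in which direction, with a black bar at the list's median. The folding list centers at -0.74, the modification list at 0.74 and the proliferation markers at -2.68.

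In the gamma-tubulin ring complex list, which holds the partners of TUBG1, 7 of 11 tested were lower and 2 higher (median -0.60), beside 35.4% and 35.3% of all genes tested. MZT1, a small ring subunit, went from 1643 ± 169 to 516 ± 42.5 (log2 fold change -1.67, adjusted p = 2.8e-12) and TUBGCP3, with 62.3% of its windows on alternate contigs, was lower (-1.18, adjusted p = 8.3e-08), whereas TUBGCP6 (0.92, adjusted p = 7.6e-09) and the Golgi anchor AKAP9 (0.63, adjusted p = 1.0e-06) were higher. Of 23 microtubule-associated proteins tested, 8 were lower, 9 higher and 6 neither (median -0.08). These shares lie near the 35.4% and 35.3% of all genes tested, so nothing is read from them about the list. TPX2, a spindle assembly factor, had the largest fall, from 10716 ± 549.6 to 2049 ± 35.8 (-2.39, adjusted p = 3.3e-17), ahead of CKAP5, a microtubule polymerase (-1.41, adjusted p = 1.1e-12). The neuronal MAP2 had 4, 0 and 5 reads with DMSO and 40, 41 and 82 with erlotinib, and MAP1A 2, 4 and 10 against 82, 57 and 65. Both passed the minimum only through the erlotinib libraries, so nothing is read from their calls, and without them 7 of 21 were higher. Of 8 destabilising or severing genes tested, 5 were lower and 0 higher (median -0.47), beside 35.4% and 35.3% of all genes tested, with STMN3, a stathmin that binds free tubulin, at -1.72 (adjusted p = 1.3e-10) and FIGNL1 at -1.04 (adjusted p = 7.1e-10).

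Proliferation markers moved with the lower tubulins. All 10 were lower (median -2.68), beside 35.4% of all genes tested, and their summed signal was 57055, 62045 and 56553 with DMSO and 8771, 8609 and 8555 with erlotinib. RRM2, a ribonucleotide reductase subunit, was lowest at -4.14 (adjusted p = 4.6e-19), and CDK1 followed at -3.03 (adjusted p = 1.5e-15). The summed fall of these markers and that of the tubulin members were measured in the same libraries, and the part of the one in the other was not tested.

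Markers of other cell types were examined because TUBB3 and TUBA1A are known from neurons. Of 10 neuron markers 4 were tested, and SYT1 was higher (log2 fold change 1.85, adjusted p = 8.1e-13). RBFOX3, with means of 7.74 and 20.4, passed the minimum only through the erlotinib libraries, and nothing is read from its call. The summed signal of the list was 431, 425 and 368 with DMSO and 1239, 1212 and 1198 with erlotinib, and most of it was SYT1, a synaptic vesicle protein with means of 309 and 1115. INA, a neurofilament protein, had means of 76.9 and 63.6 (log2 fold change -0.27, adjusted p = 0.33), and SYP, a synaptic vesicle protein, had 23 reads in all with DMSO and 45 with erlotinib. ELAVL4, SNAP25 and GAP43 were at 0 in all 6 libraries, and ELAVL3, NEFL and NEFM were near 0. Of 8 fibroblast markers only COL1A1 passed the minimum, and it was higher, from 77.7 ± 15.3 to 216 ± 27.9 (adjusted p = 6.8e-07). LUM, below the minimum and not tested, had 2, 4 and 6 reads with DMSO and 10, 10 and 20 with erlotinib, so its groups did not overlap either. DCN had 0 reads with DMSO and 5 with erlotinib, COL1A2 3 and 0, COL3A1 4 and 1, PDGFRA 0 and 2, and PDGFRB 5 and 7. THY1 was at 0 in all libraries. The summed signal of the fibroblast list was 73.7, 75.2 and 109 with DMSO and 260.2, 223 and 217 with erlotinib. Of 5 leukocyte markers 2 were tested. CD68 was higher (0.23, adjusted p = 0.0076, and 0.051 without erlotinib library 5), and CD79A, which passed the minimum only through the DMSO libraries, had 15, 16 and 20 reads with DMSO and 16, 2 and 9 with erlotinib. PTPRC, CD3E and CD14 were below the minimum, with DMSO means of 1.78, 1.81 and 6.60 and erlotinib means of 4.75, 1.54 and 11.8. The list summed to 2794, 2809 and 3176 with DMSO and 3253, 3537 and 3472 with erlotinib. The defining epithelial genes were abundant in both groups, EPCAM with means of 9852 and 9485 and CDH1 of 27824 and 30609. Of 8 lung epithelial markers tested, 4 were lower and 2 higher, beside 35.4% and 35.3% of all genes tested, and nothing is read from these counts about the list. The keratins KRT18 (-1.25, adjusted p = 1.6e-12) and KRT8 (-0.83, adjusted p = 4.3e-10) had the largest falls in the list, and the 2 genes called higher were NAPSA (1.92, adjusted p = 8.4e-15) and NKX2-1 (1.53, adjusted p = 5.2e-14).

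The genes whose pattern over the 6 libraries was most like that of TUBA1A, by Euclidean distance of centred log2 values among genes averaging at least 100 in signal, were GBP2 (distance 0.133), PELI2 (0.177) and PRR36 (0.241). PELI2, with means of 37.7 and 344, reached the average of 100 only through the erlotinib libraries. GBP2, an interferon-inducible GTPase, went from 276 ± 26.6 to 2603 ± 37.5. Nearest to TUBA1B, the member with both the largest fall and the highest mean, were CCND1 (0.159), CENPI (0.173) and XRCC2 (0.191). CCND1, the cyclin of G1 entry, went from 24391 ± 794 to 2599.9 ± 173.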

How the data were processed

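RNA-seq was performed on poly(A)-selected RNA of HCC827 cells in 6 libraries. Paired-end reads were aligned by the authors with Bowtie2 2.3.4 to the human genome (GRCh38), and reads with a unique position were counted with featureCounts 1.6.3 (versions also in the submitters' processing notes, which name DESeq2 1.18.1). The deposited signal values are reads divided by 1 size factor per library (0.882 to 1.08), since dividing by the step of each library gave whole reads for 100% of the values (tolerance 0.1 read). Reads over exon junctions can be lost, because this aligner is not splice-aware.

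The members and lists were chosen with earlier results of these data known. Differential expression was tested with limma 3.58.1 (R 4.3.3) on log2(signal + 1), with a trend of variance on mean, for the 14215 genes averaging a signal of 10 or more. Tests were two-sided, with Benjamini-Hochberg adjustment over all of them and a threshold of 0.05. The script was tested on simulated data. Fold changes of low genes are understated by the pseudocount of 1. Replicates differed beyond counting noise, with a chi-square of 4.13 to 24.3 per degree of freedom. Genes named are the members, the other tubulin genes, the 2 largest rises and falls past the threshold in each list, tubulin-specific enzymes whose role is explained, and the 3 genes nearest in pattern. CNOT11, TTC5, TTLL3, genes listed at 0, other markers and genes overlapping a member were named after their values were seen. So were TBCA, TBCB, TBCE, TBCEL, ARL2, AGTPBP1 and AGBL3. Alternatives were edgeR 4.0.16 and DESeq2 1.42.0 on the recovered reads, TMM factors, total counts, pseudocounts of 0.1 and 10, no filter, at least 10 reads in every library, an adjusted p under 0.01 and each library left out. Sequences and positions came from GENCODE release 44 and RefSeq GRCh38.p14, and 157 of 158 member and list genes were found in GENCODE. No sample column was left unused. Some sequences are not reported here.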

Additional observations from a re-analysis of the deposited data

How the results depend on the processing

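No paired analysis was possible because the erlotinib columns, numbered 4 to 6, could not be matched to single samples of the labels, which number each group 1 to 3. For the 9 members that passed the minimum signal, no direction changed under any alternative run. TUBB2B entered no alternative, so the dependence of its direction on the processing was not tested. The log2 ratio of the summed alpha and beta members was -1.98 with total counts and -2.36 per kilobase of uniquely mappable positions (chosen after seeing the data), in place of -2.16, and lay between -2.19 and -2.13 with 1 library left out. Total counts moved the median of all genes from 0.02 to 0.19. TUBB3 lay between 0.03 and 0.31 over the alternatives. edgeR on the recovered reads called 4941 genes lower and 5085 higher, and DESeq2 4934 and 4949. With 1 library left out, 4702 to 5096 genes were lower and 4585 to 5094 higher.

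Of the other tubulin genes, 1 in place of 2 was lower with total counts, with no filter and at an adjusted p under 0.01, and 1 to 2 with 1 library left out. The number higher was 2 in place of 1 with no filter, and 1 to 2 with 1 library left out. In the folding list the number higher was 0 with TMM factors, 3 with total counts and 0 at an adjusted p under 0.01 in place of 1, and 0 to 1 with 1 library left out. With total counts 3 autoregulation genes were higher in place of 1, and 1 destabiliser or severing gene in place of 0 (0 to 1 with 1 library left out). Of the neuron markers 1 in place of 2 was higher with at least 10 reads in every library and at an adjusted p under 0.01, and 1 to 2 with 1 library left out. Of the fibroblast markers 2 in place of 1 were higher with no filter. Of the leukocyte markers 0 to 1 were lower and 0 to 1 higher with 1 library left out. TUBA3D, at 0.00, was at -0.014 with TMM factors and between -0.45 and 0.46 with 1 library left out. The cause of these shifts was not tested.

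Depth limits the low genes: TUBB2B, TUBA3D, TUBA8, TUBB4A and TUBB1 rest on few reads, and a count of 0 allows up to 3 reads by counting error alone. TUBB, listed at 0, cannot be judged from this table.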
